A study of Mus musculus with 6 samples.

Results

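Integrins and laminins are described here in C3H-10T1/2, a mouse line of mesenchymal cells, after 6 days of brown adipocyte differentiation with and without 611, an inhibitor of the histone demethylase LSD1. The group was defined by gene symbol and by no measured value, though it was picked with earlier results of these data known. It took every gene named Itga or Itgb with a subunit number, the lettered alpha subunits d, e, l, m, v and x, Itga2b, and the laminin chains Lama, Lamb and Lamc, and it left out integrin binding proteins. This gave 36 of 22942 genes, 25 integrins and 11 laminins. Itga10 matched no transcript in the tables and was not analysed here.

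The study compared 3 cultures given the solvent DMSO with 3 cultures given 611, also labelled Cpd A, at 4 uM, and its design text calls them biological replicates. All cultures were of the same line and were induced for 72 h in medium with 10% serum that held the inducers isobutylmethylxanthine (0.5 mM), indomethacin (125 uM) and dexamethasone (1 uM). Insulin (20 nM), the thyroid hormone T3 (1 nM) and the PPARG agonist rosiglitazone (1 uM) were present from then on. The labels differ on when treatment began, at seeding or 12 h after it, with induction 48 h later. The line is a culture model, so no tissue with its own basement membrane, vessels or blood cells was sampled.

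Integrins are cell surface receptors made of an alpha and a beta subunit, and the pair decides what the receptor binds. Some bind laminins, some bind collagens, and some bind the arginine-glycine-aspartate (RGD) sequence of fibronectin, vitronectin and osteopontin. Laminins are secreted trimers of an alpha, a beta and a gamma chain and are the main cell-binding part of the basement membrane, the thin sheet of matrix that surrounds each fat cell. Preadipocytes sit in a fibronectin-rich matrix, and the turn towards a basement membrane of laminin and type IV collagen is a known part of fat cell formation.

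Levels are taken as RPKM, as the deposited values carry no unit. RPKM is reads scaled to transcript length and to library size, and can be compared between genes. Group values are the mean ± SD of n = 3 libraries. A fold is a ratio of mean RPKM, and log2 fold changes are 611 minus DMSO, on log2(RPKM + 1). For genes with low values that scale shrinks the change. A gene was called higher or lower where limma, fitted to the 13829 genes with 0.1 RPKM or more in 3 or more libraries, gave a Benjamini-Hochberg adjusted p below 0.05. The p-values rest on the spread among these 3 cultures of each group. For each gene limma drew this spread towards a trend fitted over all tested genes.

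Library totals, read from the steps between low values, lay between 3.89e+07 and 4.12e+07. Kdm1a, the gene of LSD1, was at 9.09 ± 0.331 RPKM with DMSO and 11.3 ± 0.331 with 611, and it does not check the labels, since an inhibitor acts on the protein. Of all tested genes, 41.6% were called higher with 611 and 17.7% lower. Fat cell markers were lower with 611 in 9 of 9 tested genes, and their summed level went from 28000 to 29300 RPKM with DMSO to 14300 to 15900. Fibroblast and progenitor markers were higher in 8 of 9, with sums of 65.9 to 74.4 and 222 to 236 RPKM. Brown fat markers were lower in 5 of 6, with sums of 224 to 268 and 83.5 to 102 RPKM, and Ucp1 was listed at 0 in every library. These shifts stand beside every result below, and their part in those results was not tested. In such bulk RNA, fewer cells of a type and less RNA per cell cannot be told apart.

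Of the 36 genes, 27 passed the filter on low values and 9 did not. Among those tested, 13 were higher with 611, 4 were lower and 10 were not called. That is 48.1% higher and 14.8% lower, where 41.6% of all tested genes were higher and 17.7% were lower, so the share of calls was near the background. Counting larger changes alone, 10 of the 27 (37.0%) were called higher by at least 0.5 on the log2 scale, against 14.5% of all tested genes, and 2 (7.41%) were called lower by at least that much, against 4.19%. The groups did not overlap for 14 higher and 5 lower genes, 51.9% and 18.5%, beside 45.8% and 20.4% of all tested genes. The filter bears on these counts, since Itgb7 passed it through the 611 libraries alone, and Itga8, Itgb8, Lama2 and Lama5 reached it in fewer than 3 DMSO libraries. By class, 5 of 13 tested integrin alpha genes were higher and 2 lower, and 5 of 6 tested beta genes were higher. The median log2 fold change was 0.16, beside 0.10 for all tested genes. Median-of-ratios scaling between libraries brought that background median to 0.00. It then gave 12 members higher and 6 lower, where 57.2% of all tested genes were called, 28.5% higher and 28.7% lower. After scaling, Itga6 and Lamb1 also fell by at least 0.5 (log2 fold change -0.53 and -0.50), and Itgb1 no longer rose by that much (0.37). The share of all tested genes past 0.5 was not computed after scaling.

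**Figure D1:**
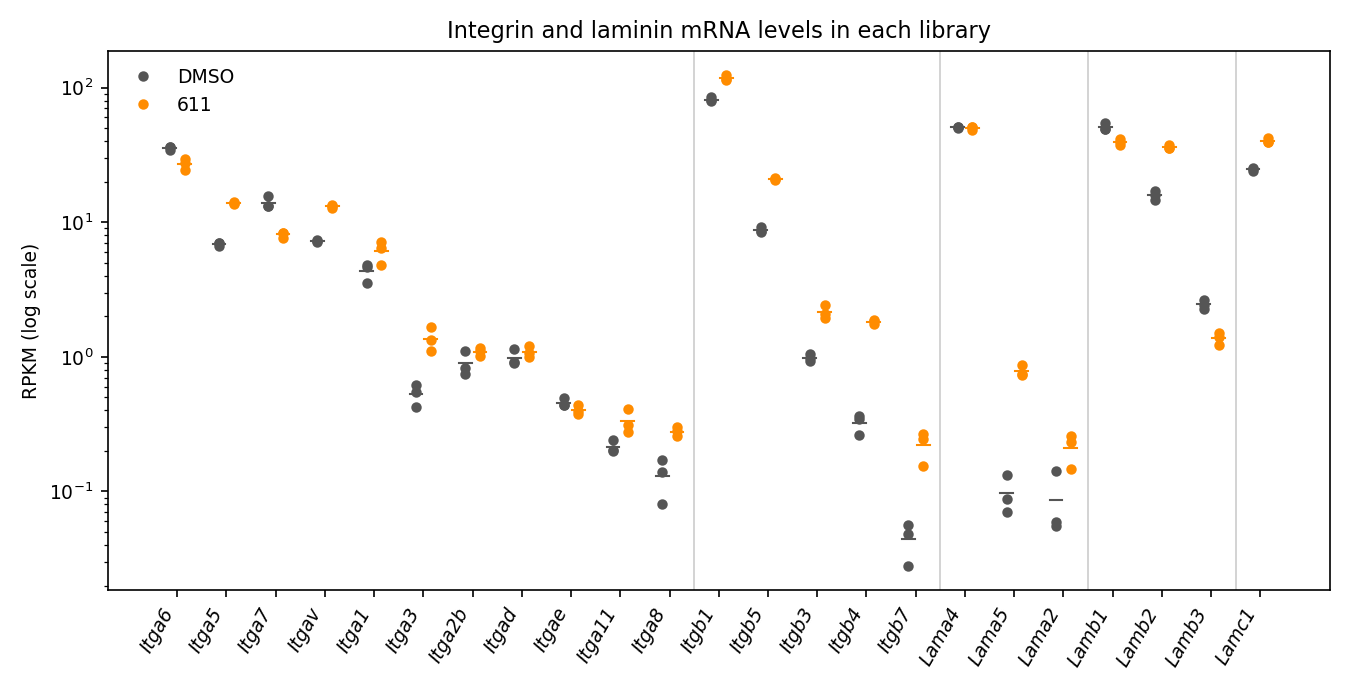
RPKM on a log axis in each of the 3 DMSO (grey) and 3 611 (orange) libraries for members with a group mean of at least 0.2, ordered within integrin alpha, integrin beta and laminin alpha, beta and gamma genes, with short bars at the group means. Itgb1 is highest in both groups, Lama4 overlaps between them, and Lamb1 and Lamb2 move towards each other.

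The laminin chains are taken first, as the ligands. With DMSO the abundant chains were Lama4, Lamb1 and Lamc1, with Lamb2 next. The main alpha chain, Lama4, which is typical of mesenchymal and vascular basement membranes, was close in both groups. Its values were 50.0, 51.2 and 51.2 RPKM with DMSO and 48.4, 50.7 and 51.1 with 611. The groups overlapped, and the gene did not pass the test (log2 fold change -0.02, SE 0.04, limma Benjamini-Hochberg adjusted p = 0.651). After median-of-ratios scaling Lama4 was called lower (log2 fold change -0.17, limma adjusted p = 0.00243). Endothelial markers were near 0, with sums of 0.102 to 0.254 RPKM with DMSO and 0.351 to 0.458 with 611, 1 tested and higher, and Cdh5, Kdr and Tie1 at 0.

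The beta chains moved in opposite directions. Lamb1, the beta chain of early and widespread laminins, was at 49.3, 54.4 and 49.6 RPKM with DMSO and 39.7, 41.8 and 37.7 with 611. Every 611 library lay below every DMSO library, and the gene fell 1.29-fold, from 51.1 ± 2.86 to 39.7 ± 2.06 (log2 fold change -0.36, SE 0.05, limma Benjamini-Hochberg adjusted p = 4.2e-04). Lamb2, the beta chain known from the neuromuscular junction, the kidney filter and vessel walls, was at 17.0, 15.9 and 14.7 with DMSO and 37.3, 35.9 and 35.4 with 611. It rose 2.28-fold, from 15.9 ± 1.11 to 36.2 ± 0.960 (log2 fold change 1.14, SE 0.05, limma Benjamini-Hochberg adjusted p = 8.0e-07), and the groups lay far apart. Lamb1 had been the higher chain by a wide margin with DMSO, and the pair came close to level with 611. The Lamb2 level was 0.344, 0.292 and 0.297 of the Lamb1 level in the DMSO libraries and 0.940, 0.859 and 0.941 in the 611 libraries.

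The stretches before the starts of these opposed genes are shown for this pair, the clearest opposed change among the laminins. Each line holds the 250 bases upstream of the RefSeq gene start (build GRCm38.p6, later than the mm9 of the study and used for sequence only), 5' to 3' on the strand of the gene. Lamb1 is at chr12:31265043-31265292 and Lamb2 at chr9:108479612-108479861, both on the plus strand. Capitals mark matches to any of 6 motifs searched on both strands: the GC box GGGCGG, the CCAAT box CCAAT, the TATA box TATAAA, the AP-1 site TGANTCA, the TEAD site CATTCC and the CArG box.
Lamb1: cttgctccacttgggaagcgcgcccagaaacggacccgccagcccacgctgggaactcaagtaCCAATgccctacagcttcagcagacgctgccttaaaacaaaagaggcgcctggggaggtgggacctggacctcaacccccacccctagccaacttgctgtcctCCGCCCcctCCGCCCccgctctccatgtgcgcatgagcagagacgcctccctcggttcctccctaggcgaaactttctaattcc
Lamb2: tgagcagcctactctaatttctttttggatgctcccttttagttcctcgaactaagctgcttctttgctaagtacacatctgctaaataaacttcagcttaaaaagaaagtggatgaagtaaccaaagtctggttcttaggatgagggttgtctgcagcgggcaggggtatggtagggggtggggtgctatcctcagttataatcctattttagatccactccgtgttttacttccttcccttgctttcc
The Lamb1 window was 62.0% G and C and held 2 GC boxes and 1 CCAAT box, none overlapping another. The Lamb2 window was 43.6% G and C, below the median of 52.4% over 32851 windows of this length, and held none of the 6. Among all windows, 32.7% held a GC box, 33.8% a CCAAT box, 12.4% a TATA box, 6.75% an AP-1 site, 12.6% a TEAD site and 1.47% a CArG box. A match is a description of letters, and an absent match says only that they are not in this window.

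The third beta chain, Lamb3, belongs to an epithelial laminin with Lama3. It was low, at 2.67, 2.45 and 2.26 RPKM with DMSO and 1.40, 1.22 and 1.50 with 611. The groups did not overlap, and it fell 1.79-fold, from 2.46 ± 0.204 to 1.37 ± 0.145 (log2 fold change -0.54, SE 0.07, limma Benjamini-Hochberg adjusted p = 2.3e-04). Lama3 fell below the filter, with 1, 1 and 3 recovered reads in the DMSO libraries and 6, 15 and 11 in the 611 libraries. Its groups did not overlap, and with no filter limma gave an adjusted p of 0.0532.

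The gamma chain common to most laminins, Lamc1, was higher with 611. Its levels were 25.1, 24.2 and 24.7 RPKM with DMSO and 42.2, 39.6 and 39.3 with 611. The groups lay apart, and the gene rose 1.64-fold, from 24.7 ± 0.432 to 40.4 ± 1.61 (log2 fold change 0.69, SE 0.04, limma Benjamini-Hochberg adjusted p = 2.3e-06). Lamc3 was at 0.0440 ± 0.0168 and 0.0438 ± 0.0301 RPKM, below the filter.

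Beside Lama4, the other alpha chains were scarce. Lama5, the alpha chain of many adult basement membranes, was at 0.133, 0.0707 and 0.0881 RPKM with DMSO and 0.867, 0.727 and 0.749 with 611. These are 59, 32 and 40 recovered reads against 403, 341 and 349, far above the floor of 3 reads. It rose 8.02-fold, the largest fold among the called members (log2 fold change 0.70, SE 0.06, limma Benjamini-Hochberg adjusted p = 1.5e-05), yet stayed far below Lama4. Lama2, the muscle and nerve chain, was at 0.0557, 0.143 and 0.0594 RPKM with DMSO and 0.146, 0.257 and 0.232 with 611, and did not pass the test (limma adjusted p = 0.0553). Schwann cell and glial markers, of which none of the 5 tested was called, summed to 4.19 to 5.34 and 4.19 to 5.15 RPKM. Lama2 was called higher on the log2(RPKM + 0.1) scale (limma adjusted p = 0.0406), without DMSO replicate 2 (0.0407), without 611 replicate 1 (0.0387) and with the replicate number as a block (limma adjusted p = 0.0450). Lama1, the embryonic chain, had at most 6 recovered reads in any library.

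Summed by class, the gamma chains were higher with 611 on either scaling, and the alpha and beta sums depended on it. The laminin alpha sum was 51.0 ± 0.709 RPKM with DMSO and 51.1 ± 1.43 with 611, and the groups overlapped. The beta sum was 69.4 ± 3.08 and 77.3 ± 2.33, and the gamma sum 25.3 ± 0.439 and 40.8 ± 1.65, with no overlap in either. After median-of-ratios scaling the alpha sum was lower with 611, at 53.6 ± 0.449 and 48.3 ± 0.783 RPKM with no overlap. The scaled beta sums overlapped, at 72.9 ± 2.70 and 73.1 ± 2.73, and the scaled gamma sums did not, at 26.6 ± 0.765 and 38.6 ± 2.03. Lama4 made up 99.6% ± 0.0706 of the alpha sum with DMSO and 98.0% ± 0.0789 with 611. Lamb2 made up 22.9% ± 1.53 of the beta sum with DMSO and 46.9% ± 1.19 with 611. Shares are taken within a library and do not move with its scaling. Two-sided exact permutation tests on 3 against 3 libraries cannot go below p = 0.1, which the unscaled beta and gamma sums and these shares reached. Over the 55 shares, sums and ratios compared, the smallest adjusted p was 0.149.

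The integrin alpha subunits are taken by what they bind, a textbook grouping applied with the values already known. The laminin-binding alphas fell where they were abundant. Itga6, which pairs with Itgb1 or Itgb4 in laminin receptors, was the most abundant alpha, at 36.2, 34.7 and 36.1 RPKM with DMSO and 29.7, 24.4 and 27.7 with 611. The groups did not overlap, and it fell 1.31-fold, from 35.7 ± 0.826 to 27.3 ± 2.67 (log2 fold change -0.38, SE 0.06, limma Benjamini-Hochberg adjusted p = 9.8e-04). Itga7, a laminin receptor subunit best known from muscle, was at 13.1, 15.5 and 13.2 with DMSO and 8.39, 8.37 and 7.67 with 611. It fell 1.71-fold, from 14.0 ± 1.37 to 8.14 ± 0.408, the largest fall among the tested integrins (log2 fold change -0.71, SE 0.07, limma Benjamini-Hochberg adjusted p = 3.8e-05). Itga7 shares 9 exon bases with the opposite-strand gene Mettl7b, which was at 0.516 and 0.232 RPKM. Skeletal muscle markers were low in the same libraries, with summed levels of 3.90 to 5.24 RPKM with DMSO and 1.66 to 2.08 with 611, and Myod1, Myog, Pax7 and Ckm were at 0 in every library.

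Itga3, the third laminin-binding alpha, went the other way at a low level. It was at 0.615, 0.425 and 0.548 RPKM with DMSO and 1.11, 1.66 and 1.33 with 611. The groups lay apart, and it rose 2.57-fold, from 0.530 ± 0.0963 to 1.36 ± 0.277 (log2 fold change 0.62, SE 0.09, limma Benjamini-Hochberg adjusted p = 4.3e-04).

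Of 4 RGD-binding alphas, 3 were called higher, where 41.6% of all tested genes were higher. Itga5, whose pair with Itgb1 is the main fibronectin receptor, was at 7.03, 6.95 and 6.69 RPKM with DMSO and 13.6, 14.3 and 14.0 with 611. It rose 2.03-fold, from 6.89 ± 0.179 to 14.0 ± 0.322 (log2 fold change 0.92, SE 0.04, limma Benjamini-Hochberg adjusted p = 9.8e-07). Itgav, which pairs with several beta subunits to bind vitronectin, osteopontin and latent TGF-beta, was at 7.35, 7.21 and 7.17 with DMSO and 12.9, 13.5 and 13.3 with 611. It rose 1.82-fold, from 7.24 ± 0.0926 to 13.2 ± 0.309 (log2 fold change 0.78, SE 0.04, limma Benjamini-Hochberg adjusted p = 1.7e-06). For both genes the libraries of a group were tight and the groups far apart. With DMSO, Itgav and Itga5 were below Itga7, and with 611 both were above it. Itga8, another RGD-binding subunit, was near the filter and rose 2.15-fold, from 0.130 ± 0.0455 to 0.279 ± 0.0221 (limma Benjamini-Hochberg adjusted p = 0.0220). Its call ended without DMSO replicate 1 or 3 or 611 replicate 1 or 3 (limma adjusted p from 0.0514 to 0.0842).

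Of the collagen-binding alphas, Itga1 alone passed the test. Itga1, a receptor subunit for collagen, was at 4.81, 3.56 and 4.61 RPKM with DMSO and 6.49, 4.78 and 7.18 with 611, and the groups overlapped, with the 611 library above the DMSO library of the same number in each of the 3 pairs. It rose 1.42-fold, from 4.33 ± 0.674 to 6.15 ± 1.24 (log2 fold change 0.42, SE 0.14, limma Benjamini-Hochberg adjusted p = 0.0262). With the replicate number as a block the limma adjusted p was 7.2e-04. Without the block, the call ended after median-of-ratios scaling (limma adjusted p = 0.106), with no filter (0.158) and without DMSO replicate 2, 611 replicate 1 or 611 replicate 3 (0.0767 to 0.0940). Itga11, a fibroblast collagen receptor subunit, was at 0.214 ± 0.0226 and 0.331 ± 0.0674 RPKM and did not pass the test (limma adjusted p = 0.0832). Itga2 had at most 4 recovered reads in any library.

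**Figure D2:**
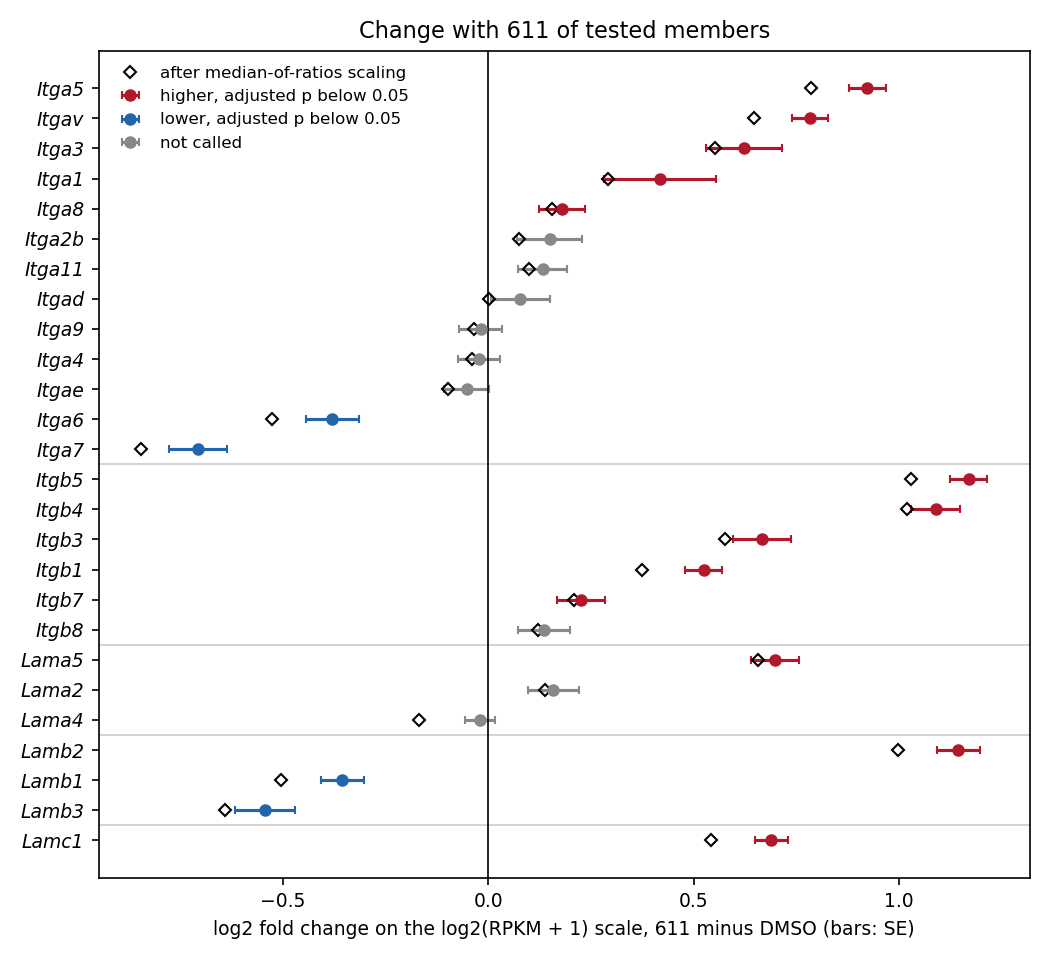
Log2 fold change (611 minus DMSO) of tested members, each with its standard error, in red where called higher, blue where called lower and grey where not called, and open diamonds for the value after median-of-ratios scaling. Itgb5, Lamb2 and Itgb4 stand furthest to the right, and Itga7, Lamb3 and Itga6 furthest to the left.

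The makeup of the alpha subunits shifted, while the direction of their summed level depended on the scaling. The sum was 71.8, 71.8 and 71.2 RPKM with DMSO and 75.8, 70.4 and 74.6 with 611, and the groups overlapped (two-sided exact permutation p = 0.4). After median-of-ratios scaling the sum was lower with 611, at 75.3 ± 0.916 and 69.6 ± 3.22 with no overlap. The laminin-binding alphas Itga3, Itga6 and Itga7 held 69.5%, 70.6% and 70.0% of it with DMSO and 51.7%, 48.9% and 49.1% with 611. The RGD-binding alphas Itga5, Itga8, Itgav and Itga2b held 21.2%, 21.5% and 20.8% with DMSO and 36.8%, 41.4% and 38.3% with 611. The share of the first group thus dropped by 20.1 percentage points and that of the second was 17.6 points higher, each without overlap (two-sided exact permutation p = 0.1 for each, the smallest that 3 against 3 allows).

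Every integrin beta gene that was called was higher, 5 of 6 tested and 0 lower by limma, with the same counts at an unadjusted p below 0.05, where 41.6% of all tested genes were higher. The count takes in Itgb7, which passed the filter through the 611 libraries alone. Itgb1, the partner of most alpha subunits, was the most abundant member in both groups. It was at 79.1, 80.7 and 84.9 RPKM with DMSO and 113, 117 and 124 with 611. The groups did not overlap, and it rose 1.44-fold, from 81.6 ± 3.02 to 118 ± 5.26 (log2 fold change 0.52, SE 0.04, limma Benjamini-Hochberg adjusted p = 1.6e-05). Itgb5, a partner of Itgav in binding vitronectin, was at 8.47, 9.18 and 8.62 with DMSO and 21.5, 20.8 and 20.5 with 611. It rose 2.39-fold, from 8.76 ± 0.374 to 20.9 ± 0.484, and had the largest log2 fold change of the members (1.17, SE 0.05, limma Benjamini-Hochberg adjusted p = 4.4e-07).

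The upstream windows of Itga5, Itgav and Itgb5 are given as those of abundant RGD receptor subunits that rose. They are cut and marked as for the laminins, at chr15:103366792-103367041 on the minus strand, and at chr2:83724147-83724396 and chr16:33829415-33829664 on the plus strand.
Itga5: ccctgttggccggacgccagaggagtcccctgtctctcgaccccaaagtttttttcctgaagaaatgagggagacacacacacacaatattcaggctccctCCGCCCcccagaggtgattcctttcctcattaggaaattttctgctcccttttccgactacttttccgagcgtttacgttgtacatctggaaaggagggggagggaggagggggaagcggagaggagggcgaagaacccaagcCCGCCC
Itgav: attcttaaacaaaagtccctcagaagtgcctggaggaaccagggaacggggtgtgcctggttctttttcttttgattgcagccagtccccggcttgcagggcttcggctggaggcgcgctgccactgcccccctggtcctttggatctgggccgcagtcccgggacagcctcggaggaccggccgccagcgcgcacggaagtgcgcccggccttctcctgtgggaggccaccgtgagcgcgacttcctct
Itgb5: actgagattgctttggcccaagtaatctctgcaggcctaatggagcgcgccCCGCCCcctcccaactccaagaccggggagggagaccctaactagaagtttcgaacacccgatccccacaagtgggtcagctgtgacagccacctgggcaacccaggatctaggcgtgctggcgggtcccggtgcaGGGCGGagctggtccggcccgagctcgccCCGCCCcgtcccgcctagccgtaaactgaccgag
The Itga5 window held 2 GC boxes and the Itgb5 window 3, and neither held another of the 6 motifs. The Itgav window held none of the 6. Upstream windows were used for 22 of the 36 members, and a GC box stood in 8 of these, among them 5 of the 10 called higher and 1 of the 2 called lower. Over all windows the share was 32.7%, counted by window, and a few members had several windows.

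Itgb3, the other common partner of Itgav, was lower in level and rose as well. It was at 0.935, 1.04 and 0.973 RPKM with DMSO and 1.95, 2.08 and 2.42 with 611. It rose 2.19-fold, from 0.983 ± 0.0535 to 2.15 ± 0.241 (log2 fold change 0.67, SE 0.07, limma Benjamini-Hochberg adjusted p = 5.7e-05), with no overlap. Itgb5 stood 8.91 ± 0.127 times above Itgb3 with DMSO and 9.83 ± 1.27 times with 611, and these ratios overlapped.

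Itgb4, which pairs with Itga6 alone in the hemidesmosomes of epithelia, went from a trace to a low level. It was at 0.364, 0.264 and 0.342 RPKM with DMSO and 1.87, 1.74 and 1.84 with 611, or 85, 63 and 82 recovered reads against 458, 431 and 451. It rose 5.61-fold, from 0.323 ± 0.0527 to 1.81 ± 0.0655 (log2 fold change 1.09, SE 0.06, limma Benjamini-Hochberg adjusted p = 1.6e-06). Of the epithelial markers 1 passed the filter and was lower with 611. Their sums were 0.515 to 1.00 RPKM with DMSO and 0.447 to 0.615 with 611, and Epcam, Krt18 and Krt5 were at 0 in every library.

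Itgb7, known from lymphocytes, had 5, 6 and 3 recovered reads with DMSO and 29, 27 and 17 with 611. Its level was 0.0443 ± 0.0146 and 0.222 ± 0.0586 RPKM (limma Benjamini-Hochberg adjusted p = 0.00849). Itgb8, a partner of Itgav, was at 0.0597 ± 0.0552 and 0.163 ± 0.0524 RPKM and did not pass the test (limma adjusted p = 0.0975). Itgb6, another such partner, had at most 7 recovered reads in any library.

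The makeup of the beta class moved less than that of the alpha class. Itgb1 held 88.9% ± 0.572 of the summed beta level with DMSO and 82.2% ± 0.860 with 611, and Itgb5 held 9.55% ± 0.487 and 14.6% ± 0.816. The sum of the beta subunits was 89.0, 91.4 and 95.0 RPKM with DMSO and 139, 142 and 149 with 611, and it stayed apart after scaling, at 96.5 ± 3.06 and 135 ± 3.52. Beta exceeded alpha in both groups, 1.28 ± 0.0483 times with DMSO and 1.95 ± 0.0961 times with 611, without overlap (two-sided exact permutation p = 0.1, the smallest possible).

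**Figure D3:**
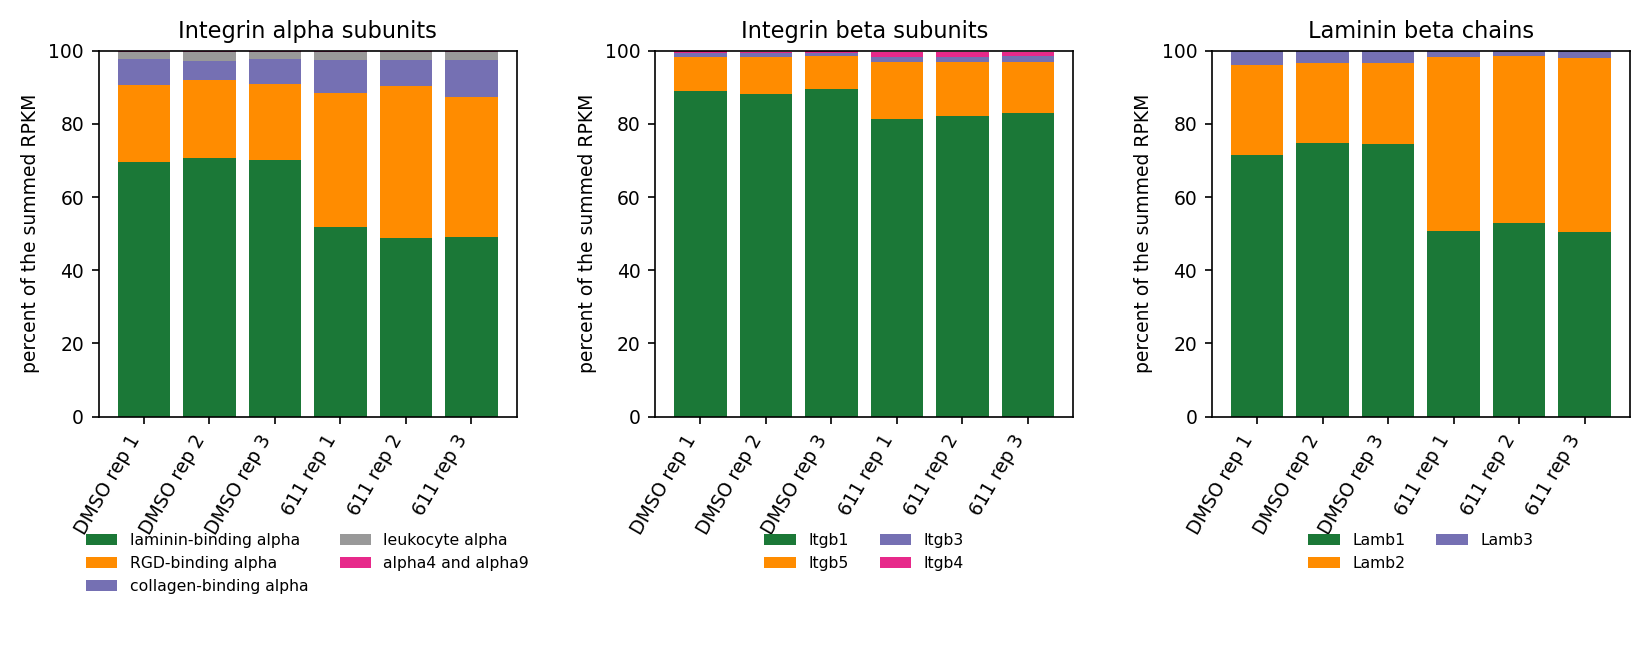
Stacked bars for each library of the percent of summed RPKM held by integrin alpha subunits grouped by ligand, by the 4 most abundant integrin beta subunits (the others, each below 0.5%, are not drawn) and by the laminin beta chains. The RGD-binding alphas, Itgb5 and Lamb2 take larger shares in the 3 611 libraries than in the 3 DMSO libraries.

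The remaining alphas belong to leukocytes and platelets or were at trace levels. Itgam was listed at 0 in all 6 libraries. Itgal had 2, 4 and 3 recovered reads with DMSO and 11, 10 and 8 with 611, and Itgax at most 10 in any library. Itgal fell below the filter, and with no filter limma called it higher (adjusted p = 0.00825). Itgb2, the beta partner of these subunits, was at 0.0325 ± 0.00530 and 0.0825 ± 0.0326 RPKM, below the filter. Blood cell markers were low as well. Of 9 leukocyte markers none passed the filter, their sums were 0.0598 to 0.171 RPKM with DMSO and 0.130 to 0.171 with 611, and Ptprc, Cd3e and Tyrobp were at 0.

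Itgad and Itga2b were higher than that, near 1 RPKM. Itgad was at 0.981 ± 0.140 RPKM with DMSO and 1.09 ± 0.102 with 611 (limma Benjamini-Hochberg adjusted p = 0.376). Its exons share 388 bases with the opposite-strand transcript 4931431B13Rik and 70 bases with Cox6a2. Whether strand was used in counting was not given in the sources used here, so reads of these genes cannot be told apart. Itga2b, the platelet subunit, was at 0.893 ± 0.190 and 1.09 ± 0.0758 RPKM (limma Benjamini-Hochberg adjusted p = 0.139), while the platelet genes Pf4, Ppbp and Gp6 were at 0 in every library. The 6 platelet markers summed to 0.475 to 0.795 RPKM with DMSO and 0.422 to 0.569 with 611. Itga2b was called higher without DMSO replicate 2 (limma adjusted p = 0.0243).

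Itgae was at 0.455 ± 0.0317 and 0.403 ± 0.0338 RPKM, Itga4 at 0.131 ± 0.0249 and 0.113 ± 0.0128, and Itga9 at 0.134 ± 0.0159 and 0.119 ± 0.0310. None of these subunits was called by limma (adjusted p = 0.432, 0.736 and 0.786). Itga4 shares 1124 exon bases with Cerkl on the opposite strand, which was at 0.312 and 0.449 RPKM.

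The genes that work with integrins and laminins were read from lists, which were chosen with earlier results of these data known. The shares of these lists are thus set beside the background as a description. Of the integrin ligands, 20 of 22 tested (90.9%) were higher and 1 lower, where 41.6% of all tested genes were higher. The median log2 fold change of the ligands was 1.03, beside 0.10 for all tested genes. The largest rises were those of Spp1 (osteopontin, 7.85-fold), Fn1 (fibronectin, 3.25-fold) and Postn (periostin, 2.77-fold), and the 1 that fell was Thbs1 (thrombospondin, 1.71-fold). In the libraries in which the fibronectin receptor subunit Itga5 rose, its ligand gene Fn1 went from 64.9 ± 3.47 to 211 ± 6.49 RPKM.

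Basement membrane partners, the genes whose products join laminins in the sheet, came next. Of 19 tested, 8 (42.1%) were higher and 3 (15.8%) lower, near the 41.6% and 17.7% of all tested genes, with a median log2 fold change of 0.19. The type IV collagen genes Col4a1 and Col4a2, which form the network that laminins sit beside, fell 1.17-fold each, to 240.3 ± 23.6 and 146 ± 15.2 RPKM (limma Benjamini-Hochberg adjusted p = 0.0161 and 0.0172). Col4a5, another type IV collagen gene of the list, was called higher (log2 fold change 0.67). Nid1, the nidogen that links laminin gamma chains to that network, fell 1.15-fold, from 59.6 ± 1.82 to 51.8 ± 1.96, while its paralog Nid2 rose 2.01-fold, from 20.4 ± 2.28 to 40.9 ± 3.20. The nidogens thus gave the same opposed pattern as the laminin beta chains, with the more abundant gene of the pair lower. Smoc2 rose 4.11-fold and Fbln2, a laminin-binding fibulin, 2.94-fold.

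Inside the cell, 21 of 35 tested adaptors of integrin adhesions were higher and 8 (22.9%) lower, where 41.6% of all tested genes were higher and 17.7% lower, with a median log2 fold change of 0.36. Tns3, a tensin that binds beta tails, rose 2.90-fold, from 11.9 ± 0.926 to 34.5 ± 1.20 RPKM. Sorbs3, which encodes vinexin, rose 2.96-fold, and the actin crosslinker Actn1 rose 2.38-fold. Tns1, the relative of Tns3, fell 1.94-fold, from 84.1 ± 2.09 to 43.4 ± 4.06. Cav1, the coat protein of the caveolae abundant in fat cells, fell 1.72-fold, from 35.4 ± 1.00 to 20.5 ± 2.00. Smooth muscle markers, contractile genes that share the actin cytoskeleton, were higher in 5 of 7 tested genes, with sums of 58.0 to 59.2 RPKM with DMSO and 139 to 153 with 611, and their part in these changes was not tested.

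**Figure D4:**
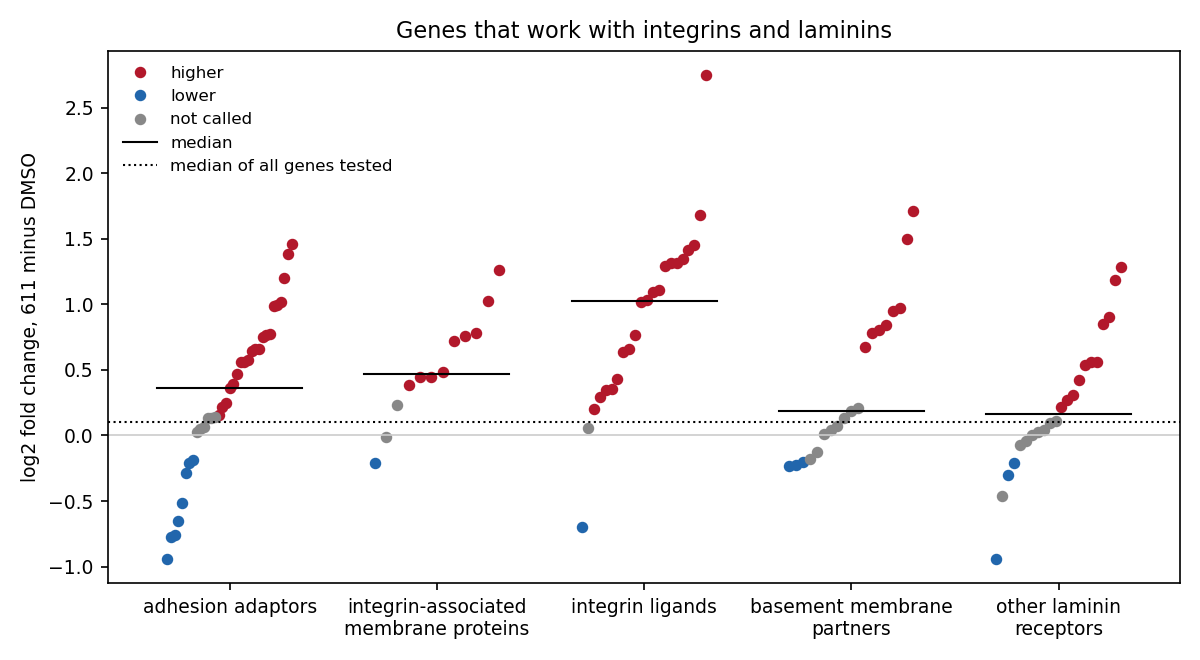
Log2 fold change (611 minus DMSO) of each tested gene in 5 lists of genes that work with integrins and laminins, coloured by call, with the list median as a solid line and the median of all tested genes, 0.10, as a dotted line. The integrin ligands have the highest median, 1.03, and the adaptors spread from -0.94 (Tns1) to 1.46 (Tns3).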

How the data were processed

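Per the labels' protocols, total RNA was taken up in TRIzol and turned into libraries with an mRNA kit that keeps strand. Per the submitters' processing notes, TopHat2 2.0.12, TopHat, SAMtools and build mm9 stood behind the tables. For each library the authors deposited RPKM values of 28430 transcripts. These tables have no header, and RPKM is the unit their values were taken to be in. The tool that computed them, its annotation and its use of strand were not given in the sources used here.

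Symbols were looked up by accession in RefSeq (GRCm38.p6, for names only), and 27789 accessions matched. Isoforms share reads, so each gene was read from its transcript of highest mean. limma 3.58.1 (R 4.3.3) with trend was fitted to log2(RPKM + 1), with group as the only term. The fit was also run on simulated data with few changed genes and unpaired libraries, which does not cover the setting of these data. Shares and sums were tested with two-sided exact permutation tests (SciPy 1.17.1). Exon overlaps come from GENCODE M21 (GRCm38), and upstream sequences from RefSeq (GRCm38.p6).

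Library totals were found from the steps of low RPKM values. Reads were recovered for 22 members below 500 reads, within 0.02 reads plus 2e-04 per read, 5 with a reference length and 17 with a searched one, which can give whole reads by chance. They cover counting error only. The totals may be of reads or of pairs. Replicates differed by more than sampling noise, with a chi-square per transcript of 2.00 to 3.37 within groups over 896 transcripts, and were kept as separate samples.

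Same-numbered libraries of the groups deviated together (correlations across genes of 0.30, 0.30 and 0.18), so the numbers may mark pairs. This reading comes from the data, as no label says what a number marks. The main fit and the permutation tests did not use the pairing, and the replicate block was the alternative that did. A few genes are not reported by name here but stay in the counts and sums. Values in every library are given for called members whose higher group mean reached 1 RPKM, and for Lama4, Lama5 and Lama2, chosen after their values were seen. From each partner list the 3 largest rises and 3 largest falls past the threshold, at 1 RPKM or more, were named, these genes apart. Dag1 and Col4a5 were added after their values were seen. The members, lists and ligand groups were chosen with earlier results of these data known. Alternatives were another pseudocount, no filter, a stricter filter, median-of-ratios scaling, the replicate block, the mean over transcripts and leaving out each library.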

Additional observations from a re-analysis of the deposited data

How the results depend on the processing

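The count of members called higher was 13 and ranged from 10 to 14 over the alternatives tried, and 4 were called lower in each of them except median-of-ratios scaling, which gave 12 higher and 6 lower with Lama4 among the added calls. After that scaling 28.5% of all tested genes were higher and 28.7% lower, in place of 41.6% and 17.7%. The higher count was 14 on the log2(RPKM + 0.1) scale and 10 with a filter of 1 RPKM, where fewer genes are tested. With the replicate block 14 were higher and 4 lower. The added call was Lama2, and the block changed no other member's call. Leaving out each library in turn gave 10 to 14 higher and 4 lower, and 7347 to 7813 calls over all genes, beside 8209. Of 311 recomputed fold changes of the tested members, 293 kept their direction and side of the threshold, 9 lost and 7 gained a call, and 2 changed sign while not called. These were Itga9 without 611 replicate 3 and Lama4 without 611 replicate 1, both close to 0. The shares of the subunits above 5% of their class moved by less than the spread between replicates when any library was left out or transcripts were averaged. After scaling the integrin ligands gave 18 higher and 1 lower, the adaptors 18 and 8, and the basement membrane partners 8 and 4. Class sums after scaling, an alternative chosen after seeing the data, are given with the sums. Depth limits the 9 members below the filter. With no filter, where 22942 genes were tested and 22.4% called higher, Itgal was called higher (limma adjusted p = 0.00825) and the other 8 were not called.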

Other observations

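Laminin receptors other than integrins were also read from a list. Of 22 tested, 11 were higher with 611 and 3 (13.6%) lower, where 41.6% of all tested genes were higher and 17.7% lower, with a median log2 fold change of 0.17 beside 0.10 for all tested genes. Dag1, the dystroglycan that binds laminin alpha chains, was abundant and did not pass the test, at 109 ± 4.76 and 103 ± 4.86 RPKM (limma Benjamini-Hochberg adjusted p = 0.221). The syndecan genes Sdc3 and Sdc2 rose 2.97-fold and 2.38-fold, to 8.19 ± 0.307 and 27.2 ± 1.26 RPKM, and the syntrophin gene Sntb2 rose 1.93-fold. The sarcoglycan genes, whose products accompany dystroglycan, were split. Sgcd fell 1.16-fold, from 37.6 ± 0.307 to 32.4 ± 0.775, while Sgcb and Sgce, looked up after their values were seen, rose by 0.42 and 0.56 on the log2 scale. Pomt1, which starts the sugar chain by which dystroglycan binds laminin, fell 1.24-fold.

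Membrane proteins that associate with integrins gave 9 of 12 tested genes higher and 1 lower, beside 41.6% and 17.7% of all tested genes, with a median log2 fold change of 0.47. The tetraspanin gene Cd9 rose 2.48-fold, from 17.0 ± 2.24 to 42.0 ± 3.88 RPKM, the endocytic receptor gene Lrp1 rose 2.07-fold, and Cd82 rose 1.81-fold, from 7.19 ± 0.307 to 13.1 ± 0.395. Cd151, the tetraspanin known for its tight association with the laminin-binding integrins, was the 1 that fell, 1.16-fold from 69.5 ± 1.61 to 59.9 ± 0.551. This fall stood beside those of Itga6 and Itga7, while the laminin-binding Itga3 rose 2.57-fold. Whether these changes are linked was not tested. Itgb2l, a gene like Itgb2 that the choice of members left out, was listed at 0 in all 6 libraries.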
